A study of Mus musculus with 13 samples.

Results

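The histone genes described here are the 57 of 19505 measured mouse genes whose symbol starts with H1f, H2ac, H2bc, H3c or H4c followed by a number (older names Hist1h, Hist2h, Hist3h and Hist4h). By symbol they comprise 8 H1 linker histone genes, 13 H2A, 15 H2B, 10 H3 and 11 H4 genes, each read by 1 row of the array table. Their RNA was measured in whole bone marrow of C57Bl/6J mice on 13 Affymetrix arrays. The recipients had been irradiated with 7 Gy and given LSK cells, a stem and progenitor fraction of marrow, which carried a Cas9 knock-in and had received guide RNAs 24 h before transplantation. The 3 groups were BRSST+sgEzh2 with 4 arrays, BRSST+sgLuc with 5 and sgLuc with 4. sgEzh2 targets Ezh2, the catalytic subunit of Polycomb repressive complex 2, sgLuc is the control guide, and the labels do not spell out which guides BRSST stands for. All groups share the Cas9 donor cells, the irradiation and the transplantation. Marrow was taken at signs of leukemia or at 6 months, and the sources used here do not tie either case to a sample. They also give no age of the mice, no share of marrow cells that carried an edit, and no statement that each array was a separate mouse, so each p-value reflects only how much these samples vary, and that variation may be technical.

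Nucleosomes wrap DNA around an octamer of H2A, H2B, H3 and H4, and H1 binds the linker DNA between them. Most of the genes described here are replication-dependent: they lie in clusters, are transcribed in S phase under the coactivator NPAT, and give mRNAs that end in a stem-loop bound by SLBP in place of a poly(A) tail. Some members, among them H1f2 and H2ac6 in their human forms, are also known to give polyadenylated mRNA in cells that have left the cycle. H1f6, H1f7 and H2bc1 are known from the testis and H1f8 from the oocyte, while H1f10 is a replication-independent linker histone. In marrow, cycling progenitors are a main source of replication-dependent histone mRNA. The labels do not say how the RNA was primed before amplification.

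Paralogs can share signal because their coding sequences are close to identical. H3c14 and H3c15 had the same value on every array, and H3c13 stayed within 0.062 of both on the log2 scale. H2ac11, H2ac12, H2ac22 and H2ac24 formed 6 further pairs that differed by less than 0.1 on every array, and H2bc11 with H2bc14 formed another, 10 such pairs in all. Whether these rows share probes was not tested. A gene was tested if its signal lay above its array's median on at least 4 arrays, which 52 of the 57 members did. The 5 that did not were H1f6, H1f8, H1f10, H2bc1 and H3c1. A gene is said below to have risen or fallen where limma's p, adjusted by Benjamini-Hochberg over the 10601 genes tested, was under 0.05. Differences are in log2 units with the SE of the fit.

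Some arrays stood apart for the histone genes. BRSST+sgLuc replicate 2 had the lowest value of its group for 41 of the 57 members (71.9%, against 23.2% of all genes) and the lowest of all 13 arrays for 30. BRSST+sgEzh2 replicate 4 had the highest value of its group for 43 members (75.4%, against 27.9% of all genes) and the highest of all arrays for 37. Within sgLuc, replicate 4 was highest for 47 members (82.5%, against 23.2%) and replicate 1 lowest for 34 (59.6%, against 20.9%). The guide target Ezh2 was at 8.78 ± 0.50 (SD, n = 4) in BRSST+sgEzh2 marrow and 9.82 ± 0.50 (SD, n = 5) in BRSST+sgLuc marrow, with overlapping ranges (difference -1.05, limma adjusted p = 0.0808). Against sgLuc, Ezh2 fell with BRSST+sgEzh2 (-1.57, limma adjusted p = 0.00306), and with BRSST+sgLuc it gave -0.53 and did not pass (limma adjusted p = 0.172). The Y-linked genes Uty and Kdm5d were high on 2 of 4, 2 of 5 and 4 of 4 arrays of BRSST+sgEzh2, BRSST+sgLuc and sgLuc, and were tried as a block. Running numbers in the sample descriptions, separate from the replicate numbers, are continuous over both BRSST groups and resume after a gap for sgLuc. No label calls them a batch, and what they mark and the group cannot be told apart in comparisons with sgLuc.

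The map of deviations gives every member on every array.

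**Figure D1:**
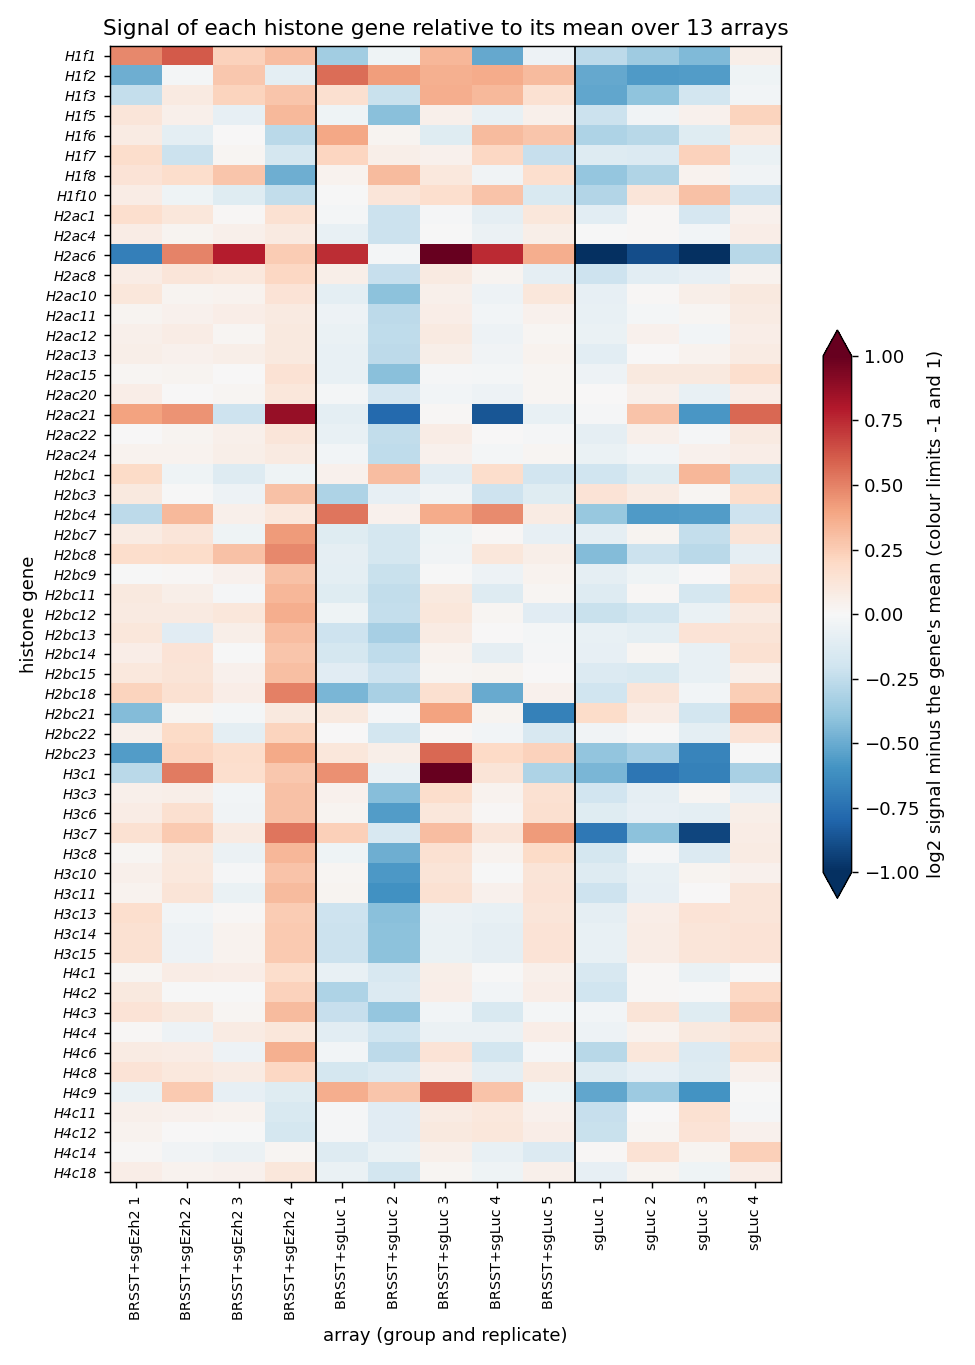
Log2 signal of each of the 57 histone genes (rows, by class) on each of the 13 arrays (columns, by group and replicate), minus that gene's mean over all arrays. Red is above and blue below the mean, with colours limited at -1 and 1. BRSST+sgLuc replicate 2 is blue through most H2A, H2B and H3 rows, BRSST+sgEzh2 replicate 4 is red through most rows, and H2ac6, H1f2, H2bc4, H4c9 and H3c7 are blue on most sgLuc arrays.

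Promoter sequences are shown for 5 members that passed the test in a comparison and for H2bc14, which did not, because the called genes lie among uncalled paralogs and the reader can compare their start-proximal elements. RefSeq's promoter table (GRCm38.p6) held an entry for 52 of the 57 members, 43 of them on chromosome 13, 6 on chromosome 3, 2 on chromosome 6 and 1 on chromosome 15. Each line gives the 150 bases before the transcript start, 5′ to 3′ on the gene's strand. Capitals mark matches to 4 motifs, each searched on both strands. They are CCAAT, the box bound by NF-Y, then TATAAA, a spelling of the TATA box. The others are the octamer ATTTGCAT bound by POU factors and the box AAACACA known from H1 promoters. None of the 4 contains another. H1f1 is at chr13:23763518-23763667 (+), H1f2 at chr13:23738657-23738806 (+), H2ac6 at chr13:23683960-23684109 (-), H2bc8 at chr13:23571250-23571399 (+), H4c9 at chr13:22041363-22041512 (-) and H2bc14 at chr13:21721894-21722043 (+).
H1f1: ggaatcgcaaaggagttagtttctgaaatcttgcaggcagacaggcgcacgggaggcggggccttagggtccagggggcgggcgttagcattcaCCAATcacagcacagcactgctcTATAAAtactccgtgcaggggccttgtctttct
H1f2: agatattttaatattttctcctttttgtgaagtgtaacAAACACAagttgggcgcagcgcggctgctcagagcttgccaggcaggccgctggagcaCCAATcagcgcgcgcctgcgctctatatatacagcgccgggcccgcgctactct
H2ac6: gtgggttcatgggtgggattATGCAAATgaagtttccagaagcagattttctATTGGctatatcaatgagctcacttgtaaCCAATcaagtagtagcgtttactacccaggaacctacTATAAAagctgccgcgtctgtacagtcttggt
H2bc8: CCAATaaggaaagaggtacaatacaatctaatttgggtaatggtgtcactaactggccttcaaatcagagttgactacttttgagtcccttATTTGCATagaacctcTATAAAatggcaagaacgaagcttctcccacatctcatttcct
H4c9: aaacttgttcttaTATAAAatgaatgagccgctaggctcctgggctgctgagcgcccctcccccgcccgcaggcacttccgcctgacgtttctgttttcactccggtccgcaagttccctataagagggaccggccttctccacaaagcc
H2bc14: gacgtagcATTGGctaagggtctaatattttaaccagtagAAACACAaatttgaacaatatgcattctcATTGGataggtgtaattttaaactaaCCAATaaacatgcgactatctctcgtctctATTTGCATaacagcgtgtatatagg

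CCAAT was found in 41 of the 52 histone windows (78.8%), against 24.5% of 32851 windows in the table. All 13 H2A and all 13 H2B windows held it, against 6 of 8 for H1, 6 of 8 for H3 and 3 of 10 for H4. TATAAA was found in 36.5% of histone windows (7.57% of all), ATTTGCAT in 17.3% (0.998% of all) and AAACACA in 13.5% (3.53% of all). The octamer matches lay in 4 H2A and 5 H2B windows and in no H1, H3 or H4 window, while AAACACA matched 4 of 8 H1 windows. Of the 7 called members with an entry, 6 held CCAAT and 5 TATAAA, and of the 45 uncalled ones 35 and 14 did. Matches were counted at any place in the window. TATAAA began 33, 26, 32 and 43 bases before the start in H1f1, H1f3, H2ac6 and H2bc8, and 137 in H4c9. H1f3 held a further match on the other strand, at 145. Some uncalled members also had distant matches, such as H3c11 at 147. Called and uncalled members both carried these letters, as H2ac6, H2bc8 and H2bc14 above show for the octamer. A match is a description of the sequence, and factor binding was not measured.

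BRSST+sgLuc against sgLuc compares the guide combination with the control guide alone. A few histone genes were higher with BRSST+sgLuc and most differed little in array signal. Of 52 tested members 7 rose (13.5%) and 0 fell: the linker histones H1f2 and H1f3, the H2A gene H2ac6, the H2B genes H2bc4 and H2bc23, H3c7 and H4c9. Over all tested genes 22.5% passed, 10.8% higher and 11.7% lower, so the share of histone genes that rose was near the background. The 45 other tested members, near-equal rows counted singly, ranged from -0.43 to 0.23, and 43 of them lay within 0.25 of 0. The median over all 57 members was -0.038, beside 0.035 over all genes, and became 0.0014 when array medians were made equal, 0.0087 without BRSST+sgLuc replicate 2 and 0.021 without sgLuc replicate 4.

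Among the linker histones, H1f2 measured 12.44, 12.30, 12.23, 12.25 and 12.20 on the BRSST+sgLuc arrays and 11.36, 11.31, 11.32 and 11.84 on the sgLuc arrays (log2 signal, replicates in order). Every BRSST+sgLuc array was above every sgLuc array, and the difference was 0.83 ± 0.15, 1.77-fold (limma adjusted p = 0.00197). H1f3 measured 10.72, 10.33, 10.91, 10.88 and 10.71 against 10.03, 10.15, 10.37 and 10.53, with BRSST+sgLuc replicate 2 inside the sgLuc range. Its difference of 0.44 ± 0.15 (limma adjusted p = 0.0497) sat at the threshold and kept its call in 3 of the 13 fits that left out 1 array (BRSST+sgEzh2 replicate 1, BRSST+sgLuc replicate 2 or sgLuc replicate 4), the adjusted p reaching 0.158 in the others. It also missed the threshold with no signal filter, with only the 2 groups in the fit and with the Y-linked class as a block (limma adjusted p up to 0.135). H1f1 and H1f5, also replication-dependent linker histones, gave 0.13 and -0.090 and did not pass.

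H2ac6 showed the widest difference of the called members, at 11.01, 10.25, 11.26, 11.02 and 10.63 with BRSST+sgLuc and 9.19, 9.39, 8.83 and 9.99 with sgLuc. The groups did not overlap, and the difference was 1.49 ± 0.30, 2.80-fold (limma adjusted p = 0.00355). The other 12 H2A genes did not pass. H2bc4, the H2B gene next to H2ac6 in the RefSeq order, measured 11.51, 11.02, 11.35, 11.45 and 11.06 against 10.60, 10.41, 10.42 and 10.77. These groups did not overlap either, and H2bc4 rose by 0.73 ± 0.14, 1.66-fold (limma adjusted p = 0.00322).

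H2bc23, the other H2B gene that rose, measured 11.37, 11.31, 11.83, 11.45 and 11.48 against 10.85, 10.92, 10.59 and 11.25. The ranges lay apart by a narrow margin, with a difference of 0.58 ± 0.19 (limma adjusted p = 0.0380). It lost its call without any of BRSST+sgLuc replicates 1, 3 or 4 or sgLuc replicates 1, 2 or 3 (adjusted p up to 0.112) and with the Y-linked class as a block (0.173). H2bc3, at 11.84, 12.07, 12.12, 11.94 and 12.03 with BRSST+sgLuc and 12.29, 12.24, 12.18 and 12.33 with sgLuc, went the other way without overlap, by -0.26 ± 0.10, and did not pass (limma adjusted p = 0.0781). It was chosen after its values were seen, and it was called lower under a stricter filter, quantile normalization, a trended variance, array quality weights and the Y-linked class as a block. H4c14 was also called lower with the trended variance and the weights, which added H2bc18 and H4c3 to the lower side (9 higher and 4 lower). With the weights 4879 of all genes were called, beside 2389 in the main fit.

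H4c9, the only H4 gene of 11 that passed, measured 11.35, 11.27, 11.59, 11.27 and 10.94 with BRSST+sgLuc and 10.47, 10.63, 10.39 and 10.98 with sgLuc. One array of each group crossed into the other's range, and H4c9 rose by 0.67 ± 0.15, 1.59-fold (limma adjusted p = 0.00635). H3c7, the only H3 gene of 9 tested that passed, measured 11.36, 10.96, 11.43, 11.25 and 11.55 against 10.41, 10.71, 10.21 and 11.20. BRSST+sgLuc replicate 2 lay below sgLuc replicate 4, and the difference was 0.68 ± 0.18, 1.60-fold (limma adjusted p = 0.0178). The call for H3c7 was lost without sgLuc replicate 1 or 3 (up to 0.0655) and with the Y-linked class as a block (0.0530). H3c1, below the signal filter, measured 5.72, 5.21, 6.54, 5.40 and 4.96 against 4.81, 4.55, 4.59 and 4.94, a difference of 0.84 that reached limma adjusted p = 0.0430 when all 19505 genes were tested, of which 11.9% passed.

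H1f2, H2ac6, H2bc4 and H4c9 kept their calls in all 13 fits without 1 array, where the highest adjusted p was 0.010, 0.0152, 0.0141 and 0.0273 in that order, and in the 12 other alternatives run. Without sgLuc replicate 1, the array low for most members, or replicate 3, these were the 4 histone genes still called. Without BRSST+sgLuc replicate 2 the 7 called genes were the same 7.

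**Figure D2:**
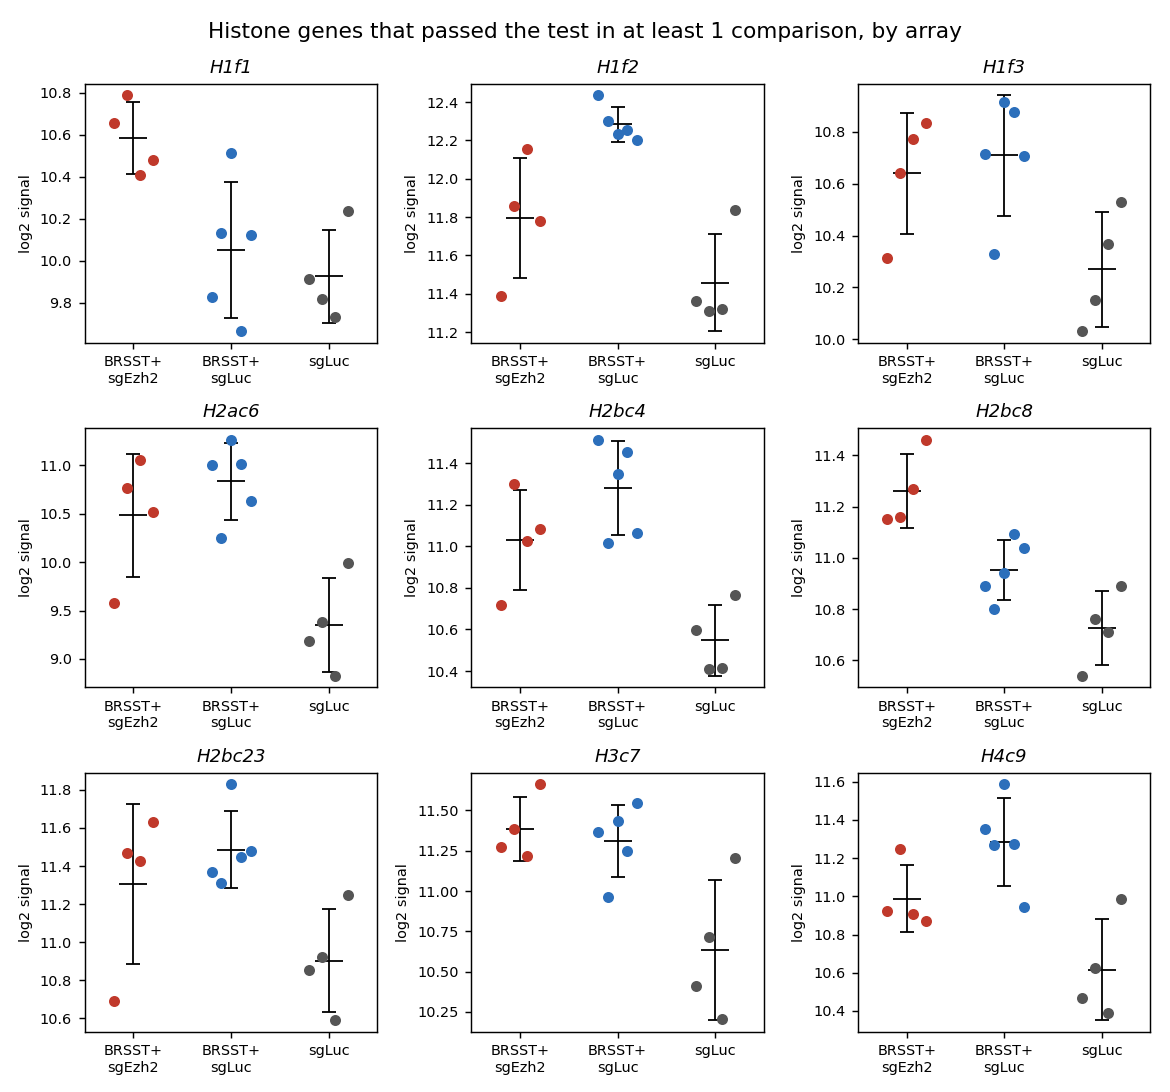
Log2 signal (y axis, a scale of its own in each panel) of the 9 histone genes that passed the test in at least 1 comparison, by group (x axis). Points are arrays in replicate order, and the black marks are the group mean and SD. H1f2, H2ac6, H2bc4 and H2bc23 have every BRSST+sgLuc array above every sgLuc array, and H1f1, H2bc8 and H3c7 have every BRSST+sgEzh2 array above every sgLuc array.

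BRSST+sgEzh2 against sgLuc compares the combination with the Ezh2 guide added against the same 4 control arrays. H1f1, H2ac6, H2bc8 and H3c7 rose, 4 of 52 tested members (7.69%), and 0 fell, while 9.37% of all tested genes passed, 5.51% higher and 3.86% lower. The share of histone genes called was thus near the background here as well. Small positive values were common, with 49 of 57 members higher and a median of 0.098, beside 51.0% of all genes and a median of 0.0048. The histone median was 0.063 without sgLuc replicate 1 and 0.17 without sgLuc replicate 4. All 10 H3 genes, 13 of 15 H2B and 12 of 13 H2A genes were on the higher side, each row counted singly, those with near-equal values included. Because the sgLuc arrays serve both comparisons, the values of the called members are given side by side for each and not set against each other as independent results.

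H1f1 measured 10.65, 10.79, 10.41 and 10.48 in BRSST+sgEzh2 marrow and 9.91, 9.82, 9.73 and 10.24 in sgLuc marrow. Every BRSST+sgEzh2 array was above every sgLuc array, by 0.66 ± 0.17 on average, 1.58-fold (limma adjusted p = 0.0296). H2bc8 measured 11.15, 11.16, 11.27 and 11.46 against 10.54, 10.76, 10.71 and 10.89. These ranges did not overlap, and H2bc8 rose by 0.53 ± 0.11, 1.45-fold (limma adjusted p = 0.00873). In BRSST+sgLuc marrow H1f1 was 0.13 and H2bc8 0.23 above sgLuc, and neither passed there.

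H2ac6 measured 9.58, 10.77, 11.06 and 10.52 with BRSST+sgEzh2, so replicate 1 lay inside the sgLuc range and the other 3 lay above it. Its difference was 1.13 ± 0.31, 2.19-fold (limma adjusted p = 0.0373), beside 1.49 for BRSST+sgLuc. H3c7 measured 11.28, 11.38, 11.21 and 11.66, all above the sgLuc arrays, with a difference of 0.75 ± 0.19 (limma adjusted p = 0.0271) beside 0.68 for BRSST+sgLuc. H1f2 (0.34, 0.208), H2bc4 (0.48, 0.0615), H2bc23 (0.40, 0.232) and H4c9 (0.37, 0.162) were above sgLuc in this group too and did not pass (log2 difference and limma adjusted p).

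H2bc8 was called in all 13 fits without 1 array (adjusted p up to 0.0397) and in the 12 other alternatives. H1f1 no longer passed without BRSST+sgEzh2 replicate 1 or 2 or sgLuc replicate 1, 2 or 3 (up to 0.0942), H2ac6 without BRSST+sgEzh2 replicate 2, 3 or 4 or sgLuc replicate 1, 2 or 3 (up to 0.109), and H3c7 without BRSST+sgEzh2 replicate 1, 2 or 4 or sgLuc replicate 1, 2 or 3 (up to 0.0949). H2bc8 was the 1 member left without BRSST+sgEzh2 replicate 2 or any of sgLuc replicates 1, 2 and 3. Without BRSST+sgEzh2 replicate 4, the array high for most members, 2 were called (H1f1 and H2bc8), without replicate 1 H2ac6, H2bc4, H2bc8 and H2bc23, and with the Y-linked class as a block H2bc4 and H2bc8.

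**Figure D3:**
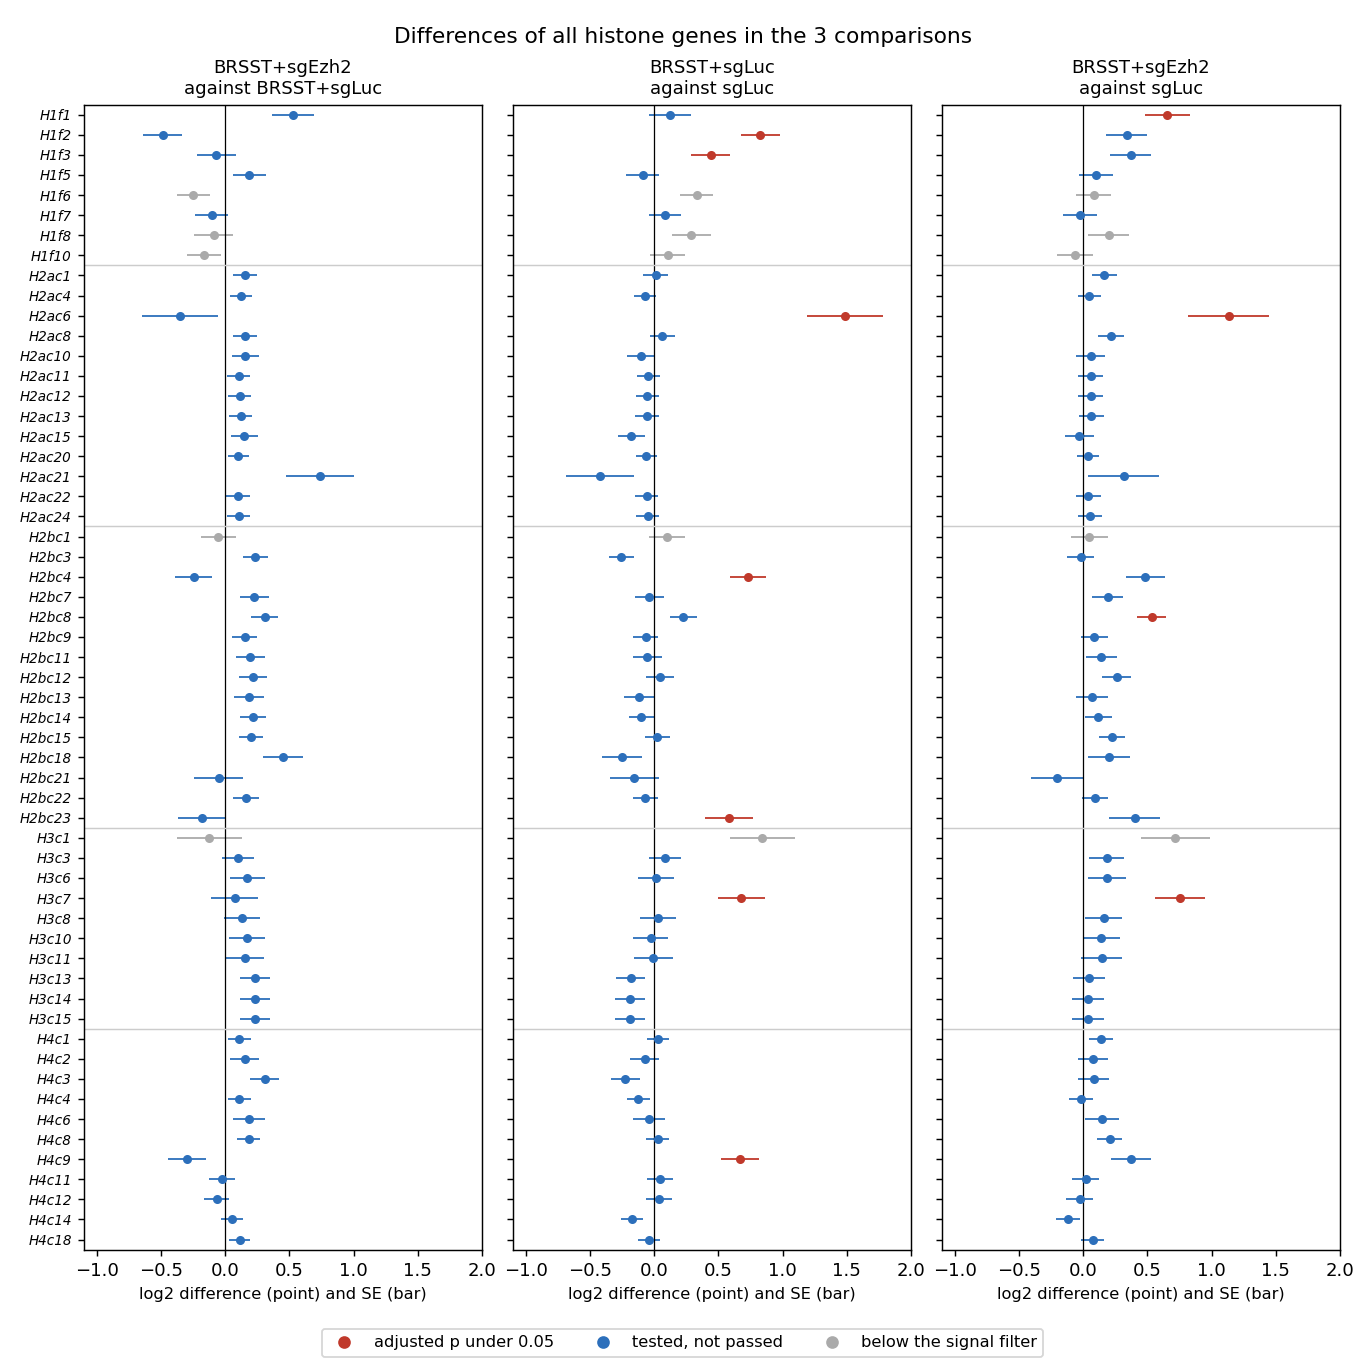
Log2 difference (points) with SE (bars) of each of the 57 histone genes in the 3 comparisons, by class from H1 at the top to H4 at the bottom. Red marks limma adjusted p under 0.05, blue tested members that did not pass and grey members below the signal filter. The 7 red points in the middle panel and the 4 in the right panel all lie above 0, and the left panel has none.

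BRSST+sgEzh2 against BRSST+sgLuc asks what adding the Ezh2 guide changed. Of the 52 tested histone genes 0 passed with limma, while 0.783% of all tested genes (83) did, and 8 members had an unadjusted p under 0.05 against 1472 of 10601 genes. With array quality weights the fit called 5 members, H1f1, H2bc18 and H2bc3 higher and H1f2 and H2bc4 lower. The same weighted fit called 1039 of the 10601 genes tested. The members ranged from -0.49 (H1f2) to 0.74 (H2ac21), and 44 of the 52 tested lay within 0.25 of 0. The median over all 57 members was 0.13, with 42 higher, beside -0.025 and 43.9% higher over all genes. Without BRSST+sgLuc replicate 2, the array low for most members, that median was 0.073.

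The linker histones H1f1 and H1f2 had the smallest p of the members, in opposite directions. H1f2 was lower with the Ezh2 guide, at 11.39, 11.86, 12.15 and 11.78 against 12.44, 12.30, 12.23, 12.25 and 12.20, with no overlap and a difference of -0.49 ± 0.15 (limma adjusted p = 0.156). H1f1 was higher, at 10.65, 10.79, 10.41 and 10.48 against 9.83, 10.13, 10.51, 9.67 and 10.12, a difference of 0.53 ± 0.16 (limma adjusted p = 0.159). BRSST+sgLuc replicate 3 reached into the upper range for H1f1, and without it H1f1 passed (0.0323).

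In the other classes the member with the smallest p was higher with the Ezh2 guide. H2ac21, an H2A gene of the chromosome 3 cluster, measured 8.78, 8.83, 8.18 and 9.26 against 8.28, 7.61, 8.39, 7.53 and 8.31 (0.74 ± 0.27, limma adjusted p = 0.231). The same chromosome carries H2bc18, at 11.20, 11.12, 11.04 and 11.48 against 10.52, 10.66, 11.14, 10.48 and 11.02 (0.45 ± 0.16, limma adjusted p = 0.210), and both genes overlapped between the groups. H4c3 measured 10.94, 10.90, 10.82 and 11.12 against 10.57, 10.42, 10.77, 10.65 and 10.78, without overlap (0.31 ± 0.11, limma adjusted p = 0.245). For H3, H3c13 was at 12.60, 12.41, 12.44 and 12.69 against 12.23, 12.01, 12.37, 12.36 and 12.55 (0.23 ± 0.12, limma adjusted p = 0.400), with H3c14 and H3c15 at near-equal values. The members called against sgLuc were lower for H1f3 (-0.069), H2ac6 (-0.35), H2bc4 (-0.25), H2bc23 (-0.18) and H4c9 (-0.30) and higher for H2bc8 (0.31) and H3c7 (0.073), and none of these passed.

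The order of genes in RefSeq's GRCm38.p6 table was used to see whether called members sat together. H2ac6 and H2bc4, both higher with BRSST+sgLuc than with sgLuc, are immediate neighbours. H4c9 lies between H2bc12 and H2ac11, which gave 0.043 and -0.046 in that comparison, and H3c7 between H2bc9 and H4c6, at -0.067 and -0.040. H1f3 lies between H4c6 and H3c6 (0.012), so only the uncalled H4c6 separates the called H3c7 and H1f3. H2bc22, beside H2bc23, gave -0.071, and H3c3, beside H1f2, gave 0.084, and neither passed. H2bc8, called with BRSST+sgEzh2, lies between H2ac8 (0.21) and H2bc7 (0.19), which did not pass in that comparison. H3c1, beside H1f1, was below the signal filter and so not tested in the main fit. With BRSST+sgEzh2 against sgLuc it gave 0.72 ± 0.27 without overlap (limma adjusted p = 0.160 with no filter). H1f6, beside H2bc4, was below the filter too. With BRSST+sgLuc against sgLuc it gave 0.33 ± 0.13 (limma adjusted p = 0.123 with no filter). Called members thus stood singly among members that were uncalled or not tested, apart from the H2ac6 and H2bc4 pair.

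Lists of genes that make, process, deposit or accompany histones were read in the same fit, beside the 10.8% of all tested genes that rose and 11.7% that fell with BRSST+sgLuc against sgLuc. Of 8 tested replication-independent variants, 2 rose with BRSST+sgLuc against sgLuc and 0 fell: H3f3b, which encodes H3.3, by 0.46 ± 0.11 (limma adjusted p = 0.00779), and H2aj, an H2A variant, by 0.30 ± 0.08 (limma adjusted p = 0.0161). Of 15 tested genes of histone transcription and mRNA processing, 0 rose and 2 fell: Cpsf2, a subunit of the 3′ end cleavage complex (-0.82 ± 0.24, limma adjusted p = 0.0277), and Tut7, a terminal uridyltransferase (-0.57 ± 0.19, limma adjusted p = 0.0484). Npat, the histone coactivator, gave 0.010 and Slbp, the stem-loop binding protein, -0.073, and neither passed. Of 18 histone chaperones 1 rose, Chaf1b, a CAF-1 subunit, by 0.70 ± 0.23 (limma adjusted p = 0.0383).

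Cell cycle genes were read in the same comparison. Of 28 DNA replication genes 1 rose, the licensing factor Cdt1, by 0.54 ± 0.16 (limma adjusted p = 0.0295), and the median over the list was -0.084. Of 19 mitosis genes 0 rose and 4 fell, among them the spindle checkpoint genes Bub1b (-1.29 ± 0.30, limma adjusted p = 0.00853) and Bub1 (-0.85 ± 0.25, limma adjusted p = 0.0238) and the topoisomerase Top2a (-0.74 ± 0.20, limma adjusted p = 0.0174). In the other comparisons 0 members of these 5 lists passed with limma. Among their tested genes the smallest p values there were those of H3f3b (-0.24, adjusted p = 0.334), Lsm11 (-0.60, 0.262), Nap1l4 (0.32, 0.312), Pola1 (0.43, 0.392) and Birc5 (-0.23, 0.475) for BRSST+sgEzh2 against BRSST+sgLuc. Against sgLuc they were those of H2aj (0.26, 0.0658), Tut7 (-0.57, 0.101), Hjurp (-0.25, 0.232), Gins1 (0.59, 0.223) and Bub1b (-0.81, 0.134). Macroh2a2, a macroH2A variant below the signal filter and so not tested, gave 0.77 ± 0.21 and 0.82 ± 0.23 in these comparisons.

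By array, the mean log2 signal of the 57 histone genes was 11.05, 11.11, 11.06 and 11.20 for BRSST+sgEzh2, 11.00, 10.82, 11.15, 11.02 and 11.04 for BRSST+sgLuc and 10.82, 10.93, 10.89 and 11.08 for sgLuc, with all 3 groups overlapping. BRSST+sgLuc replicate 2, lowest for most members, also had the lowest mean of the DNA replication list (9.19) and of the mitosis list (9.34) of all 13 arrays. BRSST+sgLuc replicate 3, highest of its group for 27 members, had the highest DNA replication mean (10.11). Among sgLuc arrays, replicate 4 had the highest and replicate 1 the lowest mean for histone genes (11.08 and 10.82), DNA replication (9.78 and 9.51) and mitosis (10.27 and 10.03). BRSST+sgEzh2 replicate 3 had a low mitosis mean (9.56) beside a histone mean of 11.06. That array was also lowest of its group for 24 members (42.1%, against 24.3% of all genes). The part of cell cycle genes in the histone values was not tested.

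**Figure D4:**
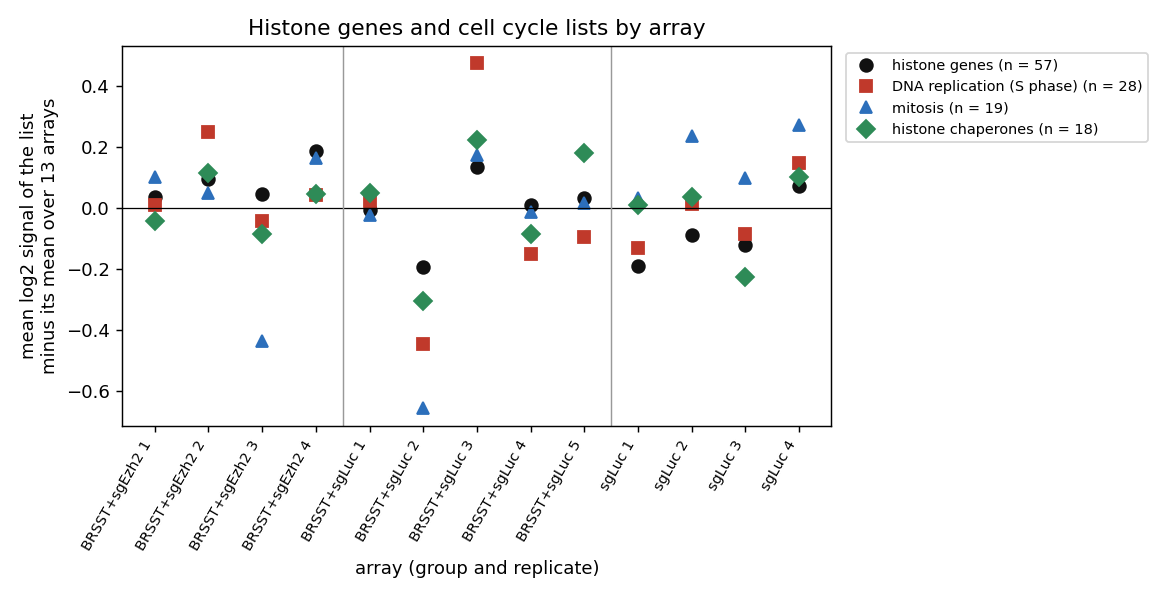
Mean log2 signal of 4 gene lists on each array (x axis, by group and replicate), minus the list's mean over the 13 arrays (y axis). Each symbol is 1 list. All 4 lists are below 0 on BRSST+sgLuc replicate 2, while histone genes are below 0 and mitosis genes above 0 on sgLuc replicates 1, 2 and 3.

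Cell type markers differed between the same groups, and in whole marrow fewer cells of a type and less RNA per cell cannot be told apart. Between BRSST+sgLuc and sgLuc, 4 of 10 tested erythroid markers rose and 0 fell, and the list's mean per array was 7.75 to 8.56 with BRSST+sgLuc, 7.19 to 7.49 with sgLuc and 7.06 to 7.78 with BRSST+sgEzh2. For B lineage markers 8 of 9 tested fell, with means of 6.83 to 8.55, 9.03 to 10.24 and 6.93 to 8.83 in the same order, and BRSST+sgLuc replicate 2 was the highest of its group. Of T and NK markers 6 of 10 fell, and of plasma cell markers 4 of 6. Of monocyte and macrophage markers 1 of 11 rose and 5 fell. Of neutrophil markers, with list means of 12.67 to 12.88 over the arrays, 2 of 14 rose and 4 fell. Between BRSST+sgEzh2 and sgLuc, 4 of 6 plasma cell, 2 of 9 B lineage and 1 of 10 T and NK markers fell, 1 of 11 monocyte and macrophage markers rose and 1 fell, 2 of 14 neutrophil markers rose and 1 fell, and 0 of 10 erythroid markers passed. Between BRSST+sgEzh2 and BRSST+sgLuc, 1 of the monocyte and macrophage markers rose and 0 of the other markers passed, with all 13 measured erythroid markers at lower values (median -0.53). Array signals have no true 0, so absence of a cell type cannot be read from them. The part of these cell types in the values of H1f2, H2ac6, H2bc4, H4c9 and the other called members was not tested.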

How the data were processed

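Whole bone marrow RNA of 3 groups was measured on 13 Affymetrix arrays. Per the labels' protocols, a Zymo kit was used for extraction and 2 ng of total RNA went through a Pico reagent kit with 10 PCR cycles, which can distort large differences. The authors deposited log2 signals; the submitters' processing notes name R 3.5.01 and oligo. How they corrected background or normalized is not given in the sources used. The log2 scale was read from the values (3.23 to 13.75, array medians 7.19 to 7.32). Precision is limited by the number of arrays.

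The table had 22203 rows, 19572 with a single gene symbol and 2631 without one. All 57 histone symbols matched RefSeq (GRCm38.p6) by Entrez number and 0 changed. H1f0 pairs with no row and was not analysed here. One limma 3.58.1 fit (R 4.3.3, lmFit and eBayes) over all 13 arrays with no covariates gave every difference, SE and adjusted p, with Benjamini-Hochberg adjustment over 10601 genes. The procedure was run on simulated data, with no outcome given here, so that run does not bear on the calls above. Plots used matplotlib 3.10.9 (Python 3.11.15).

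Named members were those called in any comparison, the member with the smallest p in each class without a call, and those below the filter. From each pathway list came up to 3 called genes or the 1 with the smallest p; Npat, Slbp and gene neighbours were added for their role or place. The histone genes, gene lists, rules and alternatives were chosen with earlier results of these data known. As alternatives, the filter was dropped or raised to the 75th percentile, arrays were quantile normalized or set to equal medians, rows of a gene were averaged, the variance was trended or robust, arrays were weighted by quality, the replicate number entered as a block, the fit was limited to the 2 groups compared, the threshold was set to 0.01, the Y-linked class (split at log2 6.09) entered as a block, and each array was left out in turn.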

Additional observations from a re-analysis of the deposited data

Results flagged for a closer look

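The 18 named histone genes were examined in 3 groups for an array far from the rest of its group, 54 gene and group pairs in all, and 2 stood out; chance flags about 1 in 20. H1f2 on sgLuc replicate 4 was at 11.84 (log2), while the other 3 sgLuc arrays were between 11.31 and 11.36. Without that array the difference of H1f2 between BRSST+sgLuc and sgLuc was 0.95 (limma adjusted p = 0.00131) in place of 0.83.

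H4c9 on BRSST+sgEzh2 replicate 2 was at 11.25, while the other 3 arrays of the group were between 10.87 and 10.92. Without that array the difference of H4c9 between BRSST+sgEzh2 and sgLuc was 0.28 (limma adjusted p = 0.384) in place of 0.37, and it passed in neither fit.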

How the results depend on the processing

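Of 972 single-gene alternatives over the 13 named histone genes past the filter, 901 left the call as it was, 53 ended it and 18 added one. Most of the 972 concern values not called in the main fit, which had no call to lose. For BRSST+sgLuc against sgLuc, H1f3 lost its call in 14 of 25 alternatives, H2bc23 in 10 and H3c7 in 4. For BRSST+sgEzh2 against sgLuc, H2ac6 lost its call in 9 of 25 and H1f1 and H3c7 in 8 each. The other called values lost none. No called value changed sign, while 7 uncalled ones did (H1f3, H2bc23 and H3c7 for BRSST+sgEzh2 against BRSST+sgLuc, H3c13 for BRSST+sgEzh2 against sgLuc, H1f1 for BRSST+sgLuc against sgLuc). Array quality weights moved the counts most: 5, 9 and 13 histone genes for BRSST+sgEzh2 against BRSST+sgLuc, BRSST+sgEzh2 against sgLuc and BRSST+sgLuc against sgLuc (0, 4 and 7 without weights), and 1039, 2976 and 4879 of all genes (83, 993 and 2389). At an adjusted p of 0.01, 1 and 4 histone genes passed against sgLuc in the last 2 of these comparisons, and 18, 398 and 1102 of all genes in the 3. Labels give the groups common replicate numbers, and 4 of 12 same-number correlations were over 0.1 (-0.18 to 0.19). These weak correlations cannot show whether the numbers pair the arrays. In the order of comparisons above, the replicate number as a block gave 0, 2 and 6 histone genes and 28, 1016 and 2546 of all genes. The Y-linked class as a block gave 0, 2 and 5 histone genes and 170, 1121 and 2397 of all genes. For all genes, BRSST+sgEzh2 against BRSST+sgLuc also gave 128 with no filter, 36 with a stricter filter and 55 with equal medians. With only the 2 groups compared in the fit, it gave 17, and BRSST+sgEzh2 against sgLuc gave 1822. Leaving out 1 array gave 0 to 1, 1 to 5 and 4 to 7 histone genes, and 22 to 377, 519 to 1344 and 1481 to 2839 of all genes. The median over the histone genes ran from 0.073 to 0.16, 0.063 to 0.17 and -0.063 to 0.021 in these fits. The causes of these shifts were not tested. The number of arrays limits the precision.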

Other observations

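Histone genes were among the brightest rows of the arrays: 15 of the 57 members lay in the top 1% of rows by mean log2 signal, among them H2ac13, H2ac20, H4c14 and the H3c13, H3c14 and H3c15 trio. The median SD within groups was 0.088 for these 15 members and 0.18 for the other 42, and none of the 15 was called in any comparison, while 9 of the 42 were, in the fit over all arrays. H4c14 was called under a trended variance and with array quality weights. The 9 called members had mean signals between 10.18 and 11.88 and a median SD within groups of 0.24. Levels of different rows were ranked here only as signal on the array, not as amounts of mRNA. The 15 bright members had mean signals between 12.32 and 13.14, and the highest value of any row was 13.75. Whether differences are narrowed at such signals was not tested.

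Most histone genes known from germ cells had low signal. H1f6 ran from 6.76 to 7.46 and H1f8 from 5.65 to 6.45 over the 13 arrays, and the testis H2B gene H2bc1 from 5.87 to 6.43, all below the filter. H1f7, which passed the filter, ran from 7.64 to 8.10 and was called in no comparison, except with array quality weights for BRSST+sgLuc against sgLuc. The testis H2A gene H2ac1 also passed the filter, at 9.72 to 10.10, and was called in no comparison.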
